A study of Drosophila melanogaster with 8 samples.

Results

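A set of 197 array targets, of 17822 tested, read far below their own median level on 1 pool of Drosophila melanogaster heads. A target is the transcript, clone or consensus sequence that a probe was designed against. A target was a member when its log2 signal on control_23C replicate 3 lay over 4 units, a 16-fold difference, below its own median over the 8 arrays of the study. The set holds CG9672, the only member with a gene symbol in the tables used here. Members were therefore chosen by their signal on control_23C replicate 3 and by their median, and those values are given as a description with no test.

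The RNA came from heads of adults of genotype w, elav-GAL4/+; UAS-dTrpA1/+, with males and females pooled and 20 heads in each of 8 samples. elav-GAL4 drives the transgene in neurons, and dTrpA1 is a cation channel that opens with warmth, so warming makes these neurons fire. The 4 control_23C samples stayed at 23 °C, and the 4 activated_31C samples were held at 31 °C for 1 h and dissected at once. Animals of both groups were reared at 23 °C and carried the same driver and channel, so warmth and neural activity cannot be told apart. Samples within a condition are described in the labels as independent. Slide 1 held all control_23C arrays and slide 2 all activated_31C arrays, so the slide cannot be told apart from the group.

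A dissected fly head holds the brain and compound eyes together with antennae, mouthparts, muscle, fat body and cuticle, and a pool of heads averages over all of them. Transcripts made in the same cells tend to rise and fall together, and such sets are known as co-varying modules. In a bulk sample, fewer cells of a type and less RNA per cell cannot be told apart. CG9672 encodes a predicted secreted protein of the chymotrypsin-like serine protease family, and its synonym SPH161 stands for a serine protease homologue. Proteases of this family are best known in flies for digestion in the gut and for cascades in the blood.

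Levels below are log2 processed signal minus the array's 75th percentile, and a deviation is a level minus the target's median over the 8 arrays. The number of probes well above background ran from 21785 to 24237 of 32162, and the 75th percentile lay between 4616 and 5357 intensity units. Control_23C replicate 3 was not a dim array, with 22451 probes well above background and a 75th percentile of 5322 intensity units. Its 7 spike-in probes, which measure RNA added in known amounts, averaged 12.03 on the log2 scale, against 12.00 to 12.24 over the 8 arrays. Control_23C replicates 3 and 4 and activated_31C replicate 3 stand apart from the other 5 arrays on the members, so results are given with and without them.

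CG9672 lies on the X chromosome and is measured by a probe for the cDNA clone GH16384. Its level was 1.45, 0.53, −6.98 and −4.39 on control_23C replicates 1 to 4. It was 0.72, 1.45, −3.49 and 1.39 on activated_31C replicates 1 to 4. The gene was thus high on 5 pools, low on 2 control pools and 1 activated pool, and the groups overlapped. Against its median of 0.62, the deviation was −7.60 on control_23C replicate 3, −5.02 on control_23C replicate 4 and −4.11 on activated_31C replicate 3. The probe was not well above background on control_23C replicate 3, so the value there is a bound. Its levels followed the median deviation over members with a Pearson r of 0.98 over the 8 arrays, a description, since the gene is itself a member. Means were −2.35 ± 4.01 in control_23C and 0.02 ± 2.36 in activated_31C (SD, n = 4 each). The difference of 2.36 (SE 2.07) did not pass the threshold (limma adjusted p = 0.394). Without control_23C replicate 3, which the rule used, it was 0.82 (adjusted p = 0.751), and without all 3 arrays that stand apart it was 0.19 (SE 0.365, adjusted p = 0.723).

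**Figure D1:**
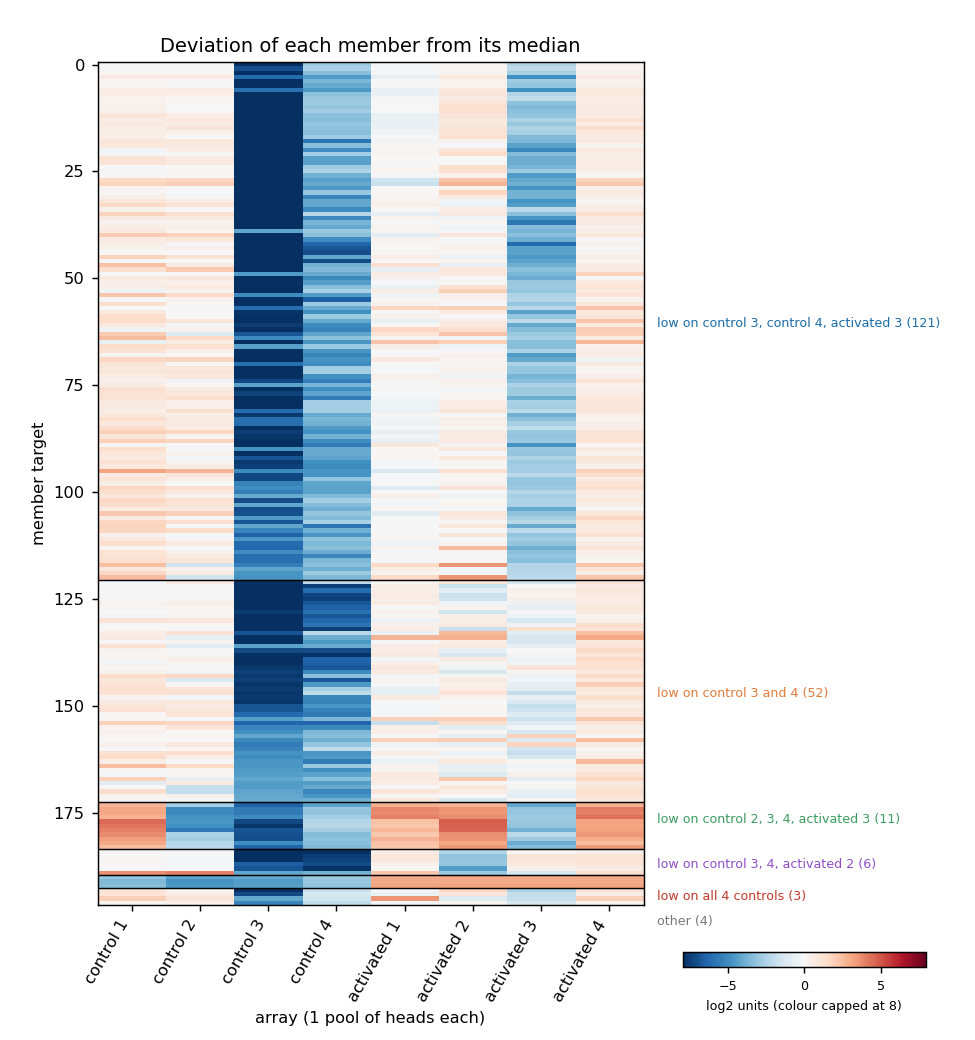
Deviation of each of the 197 members (rows, grouped by profile and sorted by median level) from its own median on each of the 8 arrays (columns), in log2 units, blue for lower and red for higher, with the colour capped at 8. Control_23C replicate 3 is low in every row by the rule, and control_23C replicate 4 and activated_31C replicate 3 are low in 193 and 133 rows by over 2.

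The other 7 arrays were not used to set the threshold, although they enter each median. On control_23C replicate 4, 193 of the 197 members lay over 2 below their median, against 319 of all 17822 targets, so 60.5% of the targets low there were members. On activated_31C replicate 3, 133 members did, against 166 of all targets, a share of 80.1%. At over 4 below the median, the counts were 103 members of 109 targets on control_23C replicate 4 and 24 of 25 on activated_31C replicate 3. Targets with a low reading on these 2 pools were therefore mostly members, whereas few members were low on the remaining arrays. The counts lower by over 2 were 3 members of 156 targets on control_23C replicate 1, 14 of 81 on control_23C replicate 2 and 6 of 74 on activated_31C replicate 2. No member was low by that much on activated_31C replicate 1, where 15 targets were, or on activated_31C replicate 4, where no target was.

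The depth of the fall differed between the pools. The median deviation of the members was −7.67 on control_23C replicate 3, with a range from −12.9 to −4.06. It was −4.05 on control_23C replicate 4, with a range from −9.61 to −1.27, and −2.67 on activated_31C replicate 3, with a range from −6.20 to 3.24. On the other 5 arrays the medians lay between 0.09 and 0.78. The order control_23C replicate 3, then control_23C replicate 4, then activated_31C replicate 3, from lowest to highest, held in 149 of the 197 members. Selection partly fixes this order, since the rule chose members by their low control_23C replicate 3. The filter on dim probes was met by 53 members in control_23C and by all 197 in activated_31C. For most members it therefore limits how low activated_31C replicate 3 can read. The lowest reading fell on control_23C replicate 3 in 186 members, which the rule favours, on control_23C replicate 4 in 8 and on control_23C replicate 2 in 3. The highest reading fell on control_23C replicate 1 in 62 members, on activated_31C replicate 4 in 62 and on activated_31C replicate 2 in 43.

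Many of the low readings were at the bottom of the measurable range. On control_23C replicate 3, 54 members were well above background and 143 were not, so for those 143 the depth of the fall is set by where the signal runs out. On control_23C replicate 4, 176 members were well above background, and on every activated_31C array all 197 were. The filter on dim probes asked for a signal well above background throughout 1 group, and only 53 members met it in control_23C.

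The members fell into 5 profiles by which arrays read over 2 below the median, a grouping made after their values were seen. The first and most frequent, that of CG9672, was low on control_23C replicates 3 and 4 and activated_31C replicate 3, and held 121 members. Another 52 members passed 2 only on the 2 control pools. A further 11 were also low on control_23C replicate 2, 6 were low on activated_31C replicate 2 beside the 2 control pools, and 3 were low on every control array. The remaining 4 fitted none of these: FBtr0077086, FBtr0080729 and EL887315 passed 2 only on control_23C replicate 3, and FBtr0077129 on that array and activated_31C replicate 3.

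**Figure D2:**
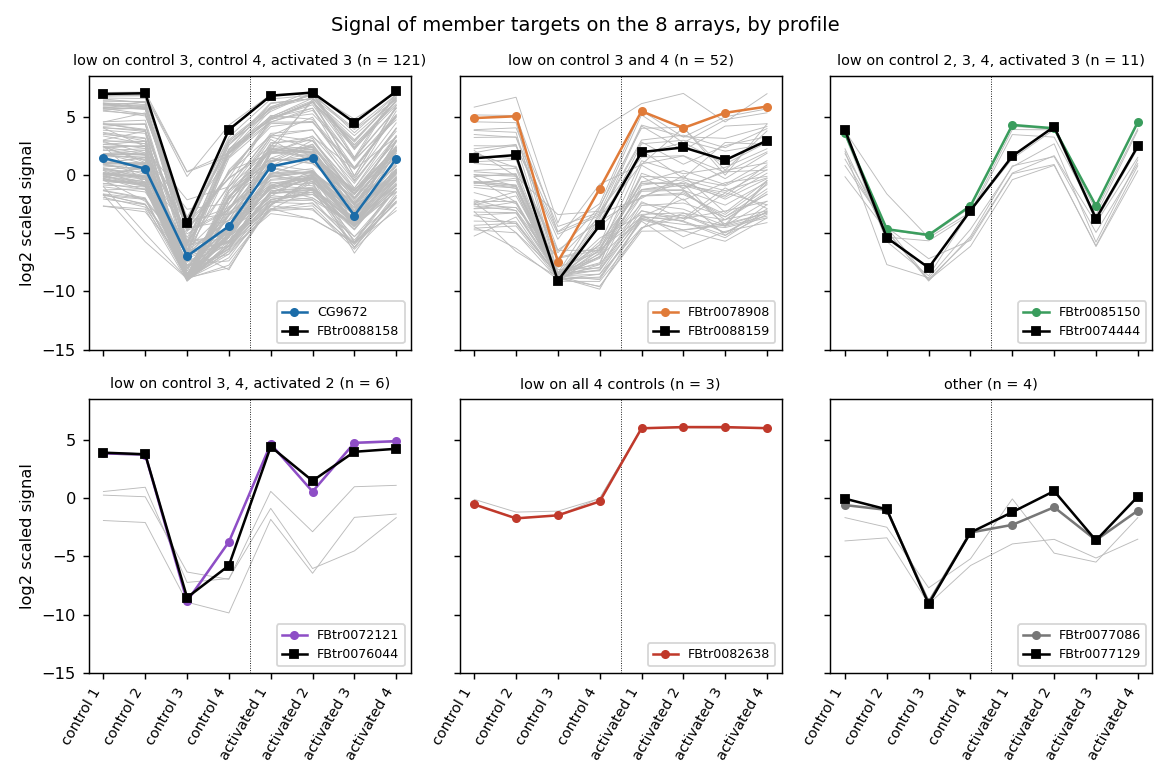
Log2 scaled signal of the members on the 8 arrays, with 1 panel per profile, grey lines for all members of the profile and coloured or black lines with markers for named examples. CG9672 falls from 0.53 to 1.45 on control_23C replicates 1 and 2 to −6.98 on replicate 3, while the members low on all controls step up at the dotted line between the groups.

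The first profile held the 6 members without a symbol that had the highest median signal, FBtr0088158, FBtr0088124, FBtr0088122, FBtr0072634, RE37763 and FBtr0088161. FBtr0088158 read 6.95, 7.0, −4.15 and 3.88 on control_23C replicates 1 to 4. On activated_31C replicates 1 to 4 it read 6.80, 7.07, 4.49 and 7.17. Its 5 high arrays lay between 6.80 and 7.17, and the 3 low arrays lay well below them. FBtr0088124 read 6.90, 6.84, −0.14 and 4.27 in control_23C and 6.89, 6.99, 4.80 and 7.03 in activated_31C. FBtr0088161 read 6.34, 6.29, −6.41 and 2.15 in control_23C and 6.12, 6.56, 3.02 and 6.59 in activated_31C. All 3 kept the order of the low arrays seen over the set. FBtr0072634 did not, at 7.07, 7.11, 0.29 and 1.88 in control_23C and 5.79, 7.27, 1.51 and 7.12 in activated_31C, with activated_31C replicate 3 below control_23C replicate 4. The spots of FBtr0072634, FBtr0088122, FBtr0088124, FBtr0088158 and Z22223 were saturated on control_23C replicates 1 and 2, so their levels there are lower limits.

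The second profile did not pass 2 below the median on activated_31C replicate 3, where its deviations ran from −1.98 to 1.89. FBtr0112526 was not well above background on control_23C replicate 3, so its deviation of −12.9 there has only a bound. It read 4.55, 4.48, −8.43 and −2.85 in control_23C and 5.15, 2.75, 4.74 and 5.33 in activated_31C. FBtr0078908 read 4.88, 5.03, −7.46 and −1.18 in control_23C and 5.46, 4.02, 5.33 and 5.86 in activated_31C. Both were low on the 2 control pools, and their lowest activated array was replicate 2, not replicate 3. Over the 52 members the median deviation was −7.30 on control_23C replicate 3, −5.00 on control_23C replicate 4 and −0.44 on activated_31C replicate 3. In the first profile the corresponding medians were −8.32, −4.02 and −3.16.

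The 11 members also low on control_23C replicate 2 were FBtr0085149, FBtr0085150, FBtr0085151, TC218740, FBtr0074444, AI260890, FBtr0088162, FBtr0086752, FBtr0085617, FBtr0077506 and TC216855. FBtr0085150 read 3.56, −4.66, −5.15 and −2.66 in control_23C and 4.29, 4.00, −2.66 and 4.53 in activated_31C. The target was high on 4 arrays and low on 4, so its median fell between the 2 states. FBtr0074444 read 3.83, −5.39, −7.97 and −3.06 in control_23C and 1.61, 4.14, −3.76 and 2.47 in activated_31C. In this profile only 1 control pool, replicate 1, read high.

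The 6 members low on activated_31C replicate 2 were FBtr0072121, GH08205, FBtr0076044, FBtr0071534, FBtr0071543 and FBtr0091498. FBtr0072121 read 3.83, 3.73, −8.86 and −3.77 in control_23C and 4.63, 0.55, 4.73 and 4.88 in activated_31C. FBtr0076044 read 3.89, 3.75, −8.54 and −5.80 in control_23C and 4.40, 1.47, 3.96 and 4.22 in activated_31C. Both read low on 3 pools, but the activated pool was replicate 2 where the first profile has replicate 3.

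**Figure D3:**
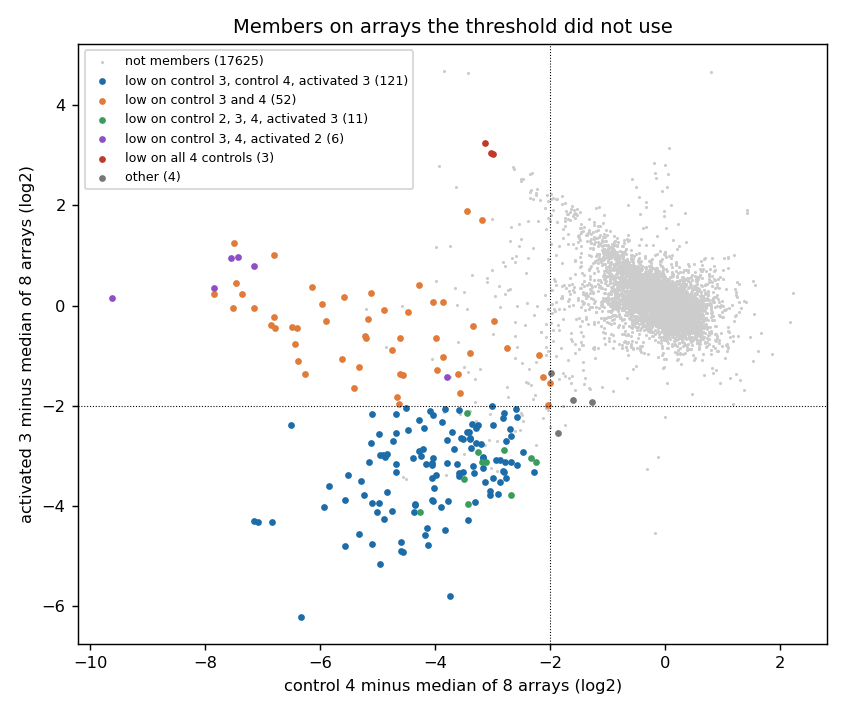
Deviation from the 8-array median on control_23C replicate 4 (x axis) and activated_31C replicate 3 (y axis), in log2 units, for the 17625 targets that were not members (grey) and the members coloured by profile, with dotted lines at −2. The 121 members of the first profile occupy the lower left with the 11 that were also low on control_23C replicate 2, and the 52 members of the second profile lie to the left, between −1.98 and 1.89 on the y axis.

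Low readings on the 2 pools did not scale with each other among the members. The Pearson r of the deviations on control_23C replicate 4 and activated_31C replicate 3 was −0.25 over 197 members, a description over targets that share the same 2 libraries and the same medians. Non-members in the scatter of deviations gather near 0 on both axes.

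Within activated_31C, members spread far more than other targets. Arrays of this group enter the medians that the rule used. All 197 members met the filter on dim probes there, and 53 did in control_23C, so the spread is a description. The median SD over the 4 activated_31C arrays was 1.74 in members, with a range from 0.0151 to 3.75, and 0.105 over all targets. An SD over 1 was found in 163 members, or 82.7%, and in 423 of all targets, or 2.37%. Over the 5 arrays that do not stand apart, the median SD was 0.625 in members and 0.190 over all targets.

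Of the member probes, 93 were printed in several spots. The median range between spots of a probe was 0.162 on control_23C replicate 3 and between 0.0453 and 0.114 on the other arrays. A further 30 probes of member targets passed the filter, and all 30 were lower by over 2 on control_23C replicate 4, an array the threshold did not use. The 306 member spots lay over the whole array, in rows 2 to 528 with a median of 279, against rows 1 to 530 with a median of 265 for all non-control spots. Their columns ran from 1 to 85 with a median of 43, as over all spots.

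The set may count some transcripts more than once, which was not tested, since sequences were not compared. In 19 pairs, members lay within 0.5 of each other on every array, and 33 members were in such a pair. FBtr0079868 and FI04406 differed by at most 0.093, FBtr0072121 and GH08205 by at most 0.105, and FBtr0085150 and TC218740 by at most 0.132. Some pairs had distant numbers, such as FBtr0077067 and FBtr0085512, which differed by at most 0.323. By type, 163 members were FlyBase transcripts of 11688 tested, 7 were consensus sequences of 3340, and 27 were cDNA clones, expressed sequence tags or others of 2471. None was a RefSeq transcript, of 323 tested, and 1 of the 267 tested targets with a symbol was a member.

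Members tended to carry neighbouring FlyBase numbers. Of 170 tested FlyBase transcripts whose number lay within 1 of a member's, 48 were members themselves, or 28.2%, against 1.39% of all tested FlyBase transcripts. Transcripts of 1 gene often have consecutive numbers, so this count can include several transcripts of a gene. In 10 runs, 3 or more members had numbers at most 5 apart, and these runs held 37 members. All 6 transcripts from FBtr0088158 to FBtr0088163 were members, and they belonged to 3 profiles. FBtr0088162, for example, read 1.82, −4.50, −8.95 and −5.44 in control_23C and 0.16, 1.65, −4.14 and 1.51 in activated_31C, with a low control_23C replicate 2 that FBtr0088158 did not have. FBtr0079054, FBtr0079055 and FBtr0079056 moved together, and FBtr0079055 read 4.55, 4.69, −6.76 and 1.85 in control_23C and 4.84, 6.02, 1.18 and 5.12 in activated_31C.

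Other runs held targets that did not move. Between FBtr0087792 and FBtr0087800, 5 members stood beside FBtr0087793, FBtr0087794 and FBtr0087798, which were not members. FBtr0087793 read 0.45, 0.47, 0.49 and 0.54 in control_23C and 0.65, 0.73, 0.65 and 0.63 in activated_31C. FBtr0088749, numbered next to the member FBtr0088748, read 3.20, 3.13, 3.24 and 3.15 in control_23C and 3.14, 3.26, 3.20 and 3.07 in activated_31C. Both were flat over the 3 arrays on which their neighbours fell. FBtr0072633, numbered just before FBtr0072634, was the only target over 4 above its median on control_23C replicate 3. It read 0.83, −8.59, 0.33 and −6.52 in control_23C and −4.27, −0.28, −6.21 and −3.77 in activated_31C. It was high on control_23C replicates 1 and 3 and activated_31C replicate 2. It lay over 2 below its median on control_23C replicates 2 and 4 and activated_31C replicate 3.

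**Figure D4:**
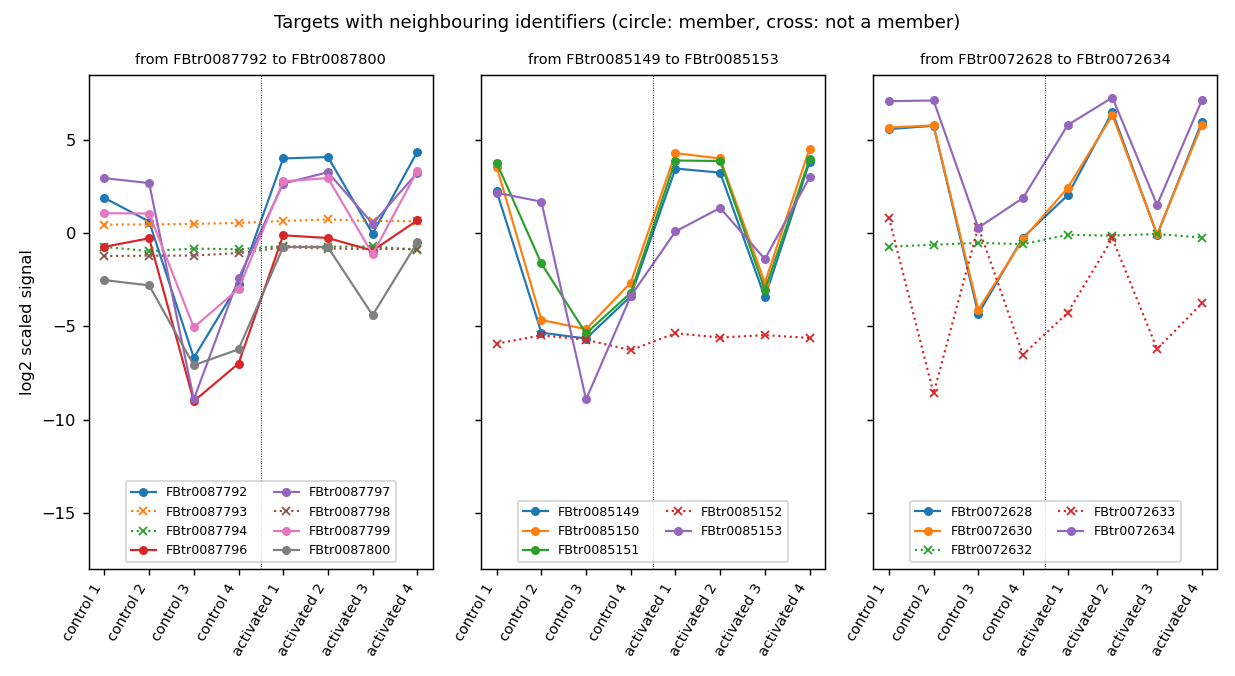
Log2 scaled signal on the 8 arrays for 3 runs of targets with neighbouring FlyBase numbers, with circles and solid lines for members and crosses and dotted lines for targets that were not members. In the left panel 5 members fall on control_23C replicates 3 and 4 while FBtr0087793, FBtr0087794 and FBtr0087798 stay level, and in the right panel FBtr0072633 runs to −8.59 on control_23C replicate 2, where the 3 members were high.

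The threshold of 4 cut through a continuous range. Just inside it were TC219875 and IP05229, both at −4.06, and FBtr0080729 at −4.09. Just outside it were FBtr0086179 at −3.999, FBtr0076496 at −3.99 and FBtr0077523 at −3.98. FBtr0076496 read −0.10 to 1.49 in control_23C and 6.77 to 6.99 in activated_31C, so its median lies between the groups. Over the 8 arrays, 155 members had a Pearson r over 0.9 with the members' median deviation, which the choice of members partly fixes. So had 40 targets that were not members and lay over 1 below their median on control_23C replicate 3. Among targets with a symbol that were not members and lay over 1 below their median on control_23C replicate 3, the most alike was CG6484, a predicted sugar transporter, with an r of 0.89 over the 8 arrays. It read 1.32, 0.81, −3.03 and −2.68 in control_23C and 0.31, 0.17, −3.05 and 1.14 in activated_31C. CG6484 was thus low on the same 3 pools, at −3.27 from its median on control_23C replicate 3. The next were CG7387 with an r of 0.46, the long non-coding RNA lncRNA:alphagamma-element:CR32865 with 0.39, CG7130 with 0.39, spdo with 0.37 and Cyp4g1 with 0.22. None of these was low on activated_31C replicate 3, where they deviated by 1.53 to 2.22. Except for Cyp4g1, each read lower on every control_23C array than on any activated_31C array, so its median lies between the groups.

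Markers of tissues of the head and of the rest of the body could be read for few genes. Of 237 entries in 16 lists, 7 genes had a named probe, and 11 lists had none, among them those of photoreceptors, glia, muscle, fat body and the crop. CG9672 was the only gene with a named probe of the 80 on the midgut and digestion list, and others may lie among the unnamed targets, so the part of midgut RNA in the result was not tested. The neuronal potassium channel gene Sh read 0.67, 0.71, 0.76 and 0.62 in control_23C and 0.52, 0.59, 0.58 and 0.43 in activated_31C, with no drop on the 3 pools. The neuronal channel gene slo deviated by 0.01 on control_23C replicate 3, 0.06 on control_23C replicate 4 and −0.11 on activated_31C replicate 3. CrebA, from the salivary gland list, deviated by −0.24, −0.53 and 0.11 on the same arrays. Its r to the members' median deviation was 0.55, and its part in the result was not tested. Acp95EF, from the male accessory gland list, deviated by 0.05, 0.07 and −0.13 on these arrays, at a median level of −5.73. The male-specific RNAs lncRNA:roX1 and lncRNA:roX2, with 2 targets each, deviated by 0.04 to 0.53 on control_23C replicate 3 and by −0.92 to −0.39 on control_23C replicate 4. On activated_31C replicate 3 they deviated by −0.27 to 0.48. Each of these targets also read below its median on activated_31C replicate 4, where members were not low. They were thus below their median on control_23C replicate 4 and not on control_23C replicate 3. Their r with the members' median deviation lay between −0.28 and 0.17, and their part in the result was not tested.

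Comparing activated_31C with control_23C asked which transcripts respond to warming of flies with the channel. All 4 members past the threshold were higher in activated_31C, of 197, against a background of 44.3% of all 17822 targets, with 19.6% higher and 24.7% lower. Control_23C replicate 3 is in this contrast, so nothing is read from the direction. The count was 21 without control_23C replicate 1, where 7535 of all targets passed, and 8 without activated_31C replicate 3, where 6907 did. The difference was positive in 196 members, with a median of 2.50 on the log2 scale, against −0.01 over all targets. Its median SE was 2.04 in members and 0.0766 over all targets. The groups did not overlap in 3 members, against 43.7% of all targets. Without control_23C replicate 3, 3 members passed, against 38.4% of all targets (17.6% higher, 20.8% lower), and the median difference was 0.62 with a median SE of 1.52.

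The 3 members low on every control array were higher in activated_31C. FBtr0082636 and FBtr0082638 are a near-equal pair, and FBtr0082637, numbered between them, read much alike. The 3 are therefore not counted as separate evidence. FBtr0082636 read −0.54, −1.71, −1.49 and −0.02 in control_23C and 5.98, 6.03, 6.0 and 5.99 in activated_31C. FBtr0082637 read −0.12, −1.21, −1.13 and −0.04, then 6.02, 6.02, 6.03 and 6.05. FBtr0082638 read −0.55, −1.75, −1.49 and −0.30, then 5.98, 6.08, 6.08 and 5.99. The groups lay far apart in each, and no activated pool was low. These 3 therefore do not vary between pools as the other members do, and the rule took them because their median lies between 2 separate groups. The log2 differences were 6.94 (SE 0.355, limma adjusted p = 6.29e-06), 6.66 (SE 0.282, adjusted p = 2.96e-06) and 7.06 (SE 0.317, adjusted p = 3.69e-06). Without control_23C replicate 3 they were 6.76, 6.49 and 6.90, all past the threshold.

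The fourth was FBtr0084445, which read −4.44, −6.30, −8.98 and −8.52 in control_23C and −4.53, −3.60, −4.41 and −3.54 in activated_31C. Control_23C replicate 1 lay within the activated range, so the groups overlapped. It was not well above background on control_23C replicates 3 and 4, so it passed the filter through activated_31C alone, and the contrast holds the array used by the rule. The measured difference was 3.04 (SE 0.965, limma adjusted p = 0.0357). It was 2.40 without control_23C replicate 3 (adjusted p = 0.0765) and 1.48 without all 3 arrays that stand apart (adjusted p = 0.156), no longer past the threshold.

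Once the 3 arrays that stand apart were removed, 2 control and 3 activated arrays remained, and the median SE of the members fell to 0.386. These 3 arrays were set aside because members read low on them, so the smaller SEs and adjusted p-values partly follow from that choice. The filter on dim probes was met in control_23C by 53 of the 197 members, and the others passed it through activated_31C alone. On these, 21 members passed the threshold, or 10.66%, against 24.8% of all targets, with 9 higher and 12 lower. The background was 12.2% higher and 12.6% lower. The median difference of the members was −0.13. Beside FBtr0082636, FBtr0082637 and FBtr0082638, the higher members were FBtr0082101, FBtr0087792, FBtr0087799, FBtr0087800, FBtr0114516 and LP07623, named because they passed in this fit. FBtr0087792 read 1.88 and 0.62 on control_23C replicates 1 and 2 and 4.00, 4.08 and 4.36 on activated_31C replicates 1, 2 and 4, a difference of 2.89 (SE 0.391, limma adjusted p = 0.00983). FBtr0087799 and FBtr0087800, from the same run of numbers, were higher by 1.96 (SE 0.18, adjusted p = 0.00392) and 2.00 (SE 0.135, adjusted p = 0.00189). All 3 of this run also fell on the pools left out, where FBtr0087792 read −6.69, −2.72 and −0.03. FBtr0087800 read −7.09, −6.23 and −4.40 there.

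The 12 lower members had differences from −1.83 to −0.66. They were FBtr0084821, FBtr0088748, FBtr0088534, FBtr0084825, FBtr0087401, FBtr0074690, FBtr0081350, IP07705, FBtr0088759, IP09633, FBtr0080335 and FBtr0079169, all of the first profile. FBtr0084821 read 2.86 and 1.89 on control_23C replicates 1 and 2 and 0.52, 0.11 and 1.00 on activated_31C replicates 1, 2 and 4, a difference of −1.83 (SE 0.389, limma adjusted p = 0.0303). FBtr0088748 read 1.72 and 1.89, then 0.84, 0.37 and −0.18, a difference of −1.46 (SE 0.31, adjusted p = 0.0302). FBtr0081350 and IP07705 are one of the near-equal pairs, so they are not counted as separate evidence. With all 8 arrays none of the 12 passed the threshold.

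**Figure D5:**
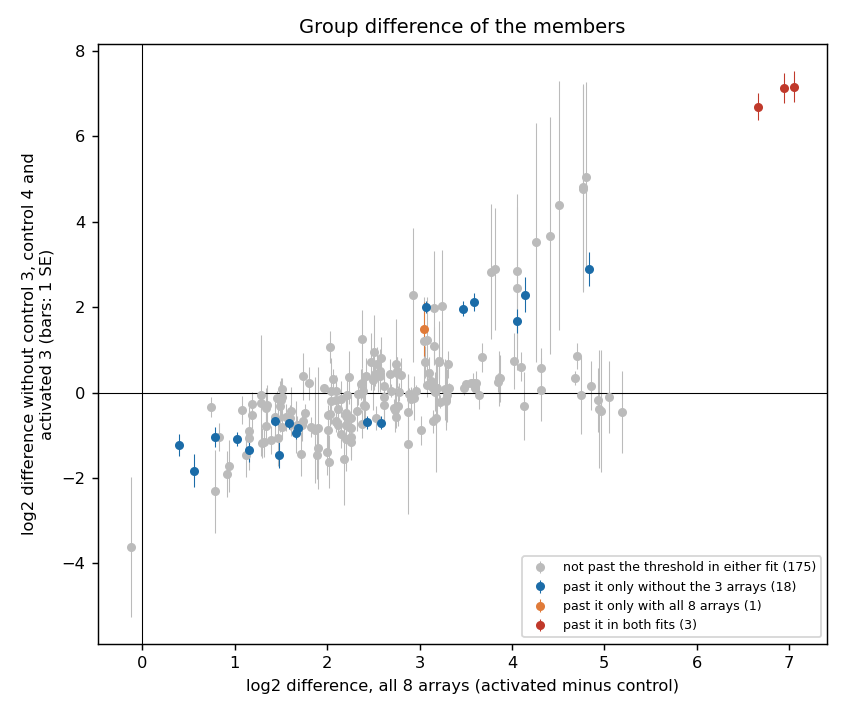
Log2 difference between groups (activated_31C minus control_23C) of each of the 197 members with all 8 arrays (x axis) and without control_23C replicates 3 and 4 and activated_31C replicate 3 (y axis, bars of 1 SE), coloured by the fits in which it passed the limma threshold of 0.05. The 3 members that passed in both lie at the upper right near 7 on each axis, and 18 passed only without the 3 arrays.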

How the data were processed

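RNA from 8 pools of heads, 4 per group, was measured on 1-colour Agilent arrays from 0.4 ug of RNA each, per the labels' protocols. The spot intensity values in the scanner files were extracted and background-subtracted by the authors. Per the file headers the software was Feature Extraction 10.7.3.1 and the design's genome build dm3, and 9.1.3.1 is the version in the submitters' processing notes. The table of values that the authors deposited holds log2 numbers, with unstated steps. It correlated with the scanner deviations at 0.983 to 0.993, so its values are centred on each probe's median, and it served as an alternative.

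Control spots and outlier-marked spots were left out. Log2 processed signal was averaged per probe and the 75th percentile of each array subtracted. Probes well above background throughout a group and measured on at least 6 arrays were kept (22346 of 32162), with the brightest by mean used for each target. Levels of different probes served only to select and sort targets. The group comparison used limma 3.58.1 under R 4.3.3 (lmFit, eBayes, group only, two-sided), Benjamini-Hochberg adjusted over 17822 targets at 0.05. SE is the moderated standard error and SD is over arrays, whose number limits the precision. The steps were tested on simulated data.

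Members, marker lists and tests were chosen with earlier results of these data known. The rule for named targets took CG9672, the 6 unnamed members with the highest median, the 3 deepest falls, the 3 targets on either side of the threshold, members past the threshold between groups, members not low on control_23C replicate 4, up to 10 alike targets with a symbol, and those over 4 above their median. Other targets named were chosen after their values were seen. Symbols came from a RefSeq gene table (Release 6 plus ISO1 MT), which named 361 targets. Probe, transcript and protein sequences were not used here. Alternatives were normexp on the median signal (offset 50), quantile, median and spike-in centring, other filters and thresholds, array weights, a replicate block and arrays left out.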

Additional observations from a re-analysis of the deposited data

Results flagged for a closer look

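The 4 arrays of each group were checked for 29 named targets, 58 groups in all, and 9 groups had 1 array far from the others. Chance gives about 1 in 20 groups, or 2.9 of 58, and targets that vary together are not separate checks. Many of the targets were also named for their values on these same arrays, so nothing is read from the excess. The gap of the far array to its nearest neighbour is given as a share of the group's range.

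Activated_31C replicate 3 was the low array in 6 of the 9. The share was 0.851 for CG9672, where that array read −3.49 and the next 0.72. It was 0.860 for FBtr0088158, 0.937 for FBtr0088124, 0.864 for FBtr0088122, 0.886 for RE37763 and 0.869 for FBtr0088161. Activated_31C replicate 2 was the low array for FBtr0072121, with a share of 0.944, at 0.55 against 4.63 to 4.88 on the others.

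Control_23C replicate 4 was the high array for 2 genes that are not members. For spdo, a regulator of asymmetric division, it read −3.71 against −4.20 to −4.16 on the others, a share of 0.931. For Cyp4g1, a cytochrome P450 of the hydrocarbon-producing oenocytes, it read −3.86 against −7.59 to −7.34, a share of 0.933.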

How the results depend on the processing

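The number of members, 197, was 108 with normexp background correction and 54 among targets well above background on all 8 arrays, which leaves out targets dim on a low pool. The other alternatives gave 162 to 242. On control_23C replicate 4, 183 to 194 members were low under 5 alternatives, and on activated_31C replicate 3, 123 to 133. The count of members past the threshold, 4, was 21 without control_23C replicates 3 and 4 and activated_31C replicate 3, where all targets past it numbered 4412 against 7896. Leaving out 1 array at a time gave 3 to 21 members, with 21 without control_23C replicate 1 and 8 without activated_31C replicate 3, and 6841 to 7535 of all targets. Other alternatives gave 3 to 5 members, except the replicate block given below. FBtr0082636, FBtr0082637 and FBtr0082638 passed under all 14 alternatives and FBtr0084445 under 5 of 14. CG9672 passed under none. Over all targets, 3497 were higher and 4399 lower, against 2760 and 5339 after quantile normalization and 1523 and 3883 after spike-in centring. Samples of the same replicate number correlated at 0.20, 0.08, 0.66 and −0.28 over all targets. Over non-members the values were 0.06, −0.06, 0.28 and −0.08. In both, only control_23C replicate 3 correlated best with its own number, so the numbers did not pair the samples throughout. With the replicate number as a block, 8 members and 7087 of all targets passed. Setting the background flag on any spot, and averaging probes in the group comparison, were chosen after seeing the data. The causes of these changes were not tested. Precision is limited by 143 members not well above background on control_23C replicate 3.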
